A study of Mus musculus with 6 samples.

Results

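*Adgre1*, *Cd68*, *Mrc1*, *Cd163*, *Lyz1*, *Lyz2*, *C1qa*, *C1qb*, *C1qc* and *Itgam* are 10 genes that mark macrophages or that macrophages use against microbes and dying cells. They were looked up by their exact gene name in RNA-seq tables of 6 mouse libraries, and 7 of the 10 were found among 48734 named genes. *Cd163*, *Lyz1* and *C1qc* have no feature of that name in the tables. The feature named *Lyz2* runs across *Lyz1* as well, so its value is that of a pair of neighbouring lysozyme genes.

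Macrophages are phagocytes that live in nearly every tissue and that can be grown from the marrow in culture, where they adhere to plastic alongside stromal cells. In the marrow they clear aged red cells and dying cells, and in bone they are relatives of the osteoclast. C1q is the recognition molecule of the classical complement pathway. It is assembled from A, B and C chains, encoded by *C1qa*, *C1qb* and *C1qc* side by side in the genome, and tissue macrophages are a main source of it. *Adgre1* encodes F4/80, an adhesion receptor used to identify mouse macrophages, and *Cd68* a lysosomal glycoprotein shared with osteoclasts and other phagocytes. *Mrc1* (CD206) and *Cd163* encode scavenger receptors for glycoproteins and for hemoglobin bound to haptoglobin. *Lyz1* and *Lyz2* encode lysozymes, which neutrophils make too, and *Itgam* encodes CD11b, an integrin chain on macrophages, monocytes and neutrophils.

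The libraries came from mice of the inbred Collaborative Cross strain CC016/GeniUnc, and no mutation, transgene, age or sex is given for them in the sources used here. The 3 libraries labelled bone were made from femoral cortical bone after the marrow had been spun out. The 3 labelled osteoblasts were made from adherent marrow stromal cells, reseeded once and then kept for 8 days in medium with dexamethasone (10 nM), ascorbic acid (50 µg/ml) and beta-glycerophosphate (10 mM), starting 7 days after the marrow was taken. The methods give 3 mice as the source of both the bone and the marrow, but nothing ties a library to a mouse. The main tests by label treat the libraries as independent, although libraries of both labels may share a mouse. Their p-values measure the spread between libraries. No sort on a surface marker is described, so a culture could hold other adherent marrow cells.

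Several libraries stood apart from others of their label. *Hbb-bt*, an adult beta-globin gene whose feature spans *Hbb-bs* too, had 7.05, 3.58 and 34838 FPKM (fragments per kilobase of transcript, scaled to all aligned fragments) across bone replicates 1 to 3. It had 3.43, 34268 and 48650 FPKM across osteoblasts replicates 1 to 3. Bone replicate 3 and osteoblasts replicates 2 and 3 were therefore above a mark of 1000 FPKM, and bone replicates 1 and 2 and osteoblasts replicate 1 far under it. The summed FPKM of 8 neutrophil genes was 2.53 to 9.91 in the libraries under the mark and 14295 to 17320 in those above it, and *Elane* was at 0 in each library under the mark. Of 7 named markers of the osteoblast lineage, 3 had their 3 highest FPKM under the mark, 1 above it and 3 in neither. Of 12112 genes with a mean of at least 1 FPKM, 16.9% had theirs under the mark and 38.4% above it. *Ibsp*, a matrix protein of mineralizing bone, was at 986 to 1278 FPKM under the mark and 43.1 to 91.3 above it, and *Sost*, made by osteocytes, at 0.07 to 0.20 under it, bone replicates 1 and 2 included, and 15.8 to 22.7 above it. Whether any label was attached to the wrong library cannot be told from these data. The libraries keep their labels throughout, so each mean and test by label is that of the libraries as labelled, and the *Hbb-bt* level is given beside them as a description. Aligned sequence, read from the ratio of coverage to FPKM, ranged from 2.04 to 3.39 Gb per library, at which 3 read pairs on a transcript of 1 kb make 0.133 to 0.221 FPKM, counting error only. Each *Sost* value under the *Hbb-bt* mark lies below this level in its library. Of the summed FPKM, 71.5% lay on unnamed features in bone replicate 2, 65.0% in osteoblasts replicate 1 and 27.4 to 30.7% in each of the other 4 libraries. Named genes summed to 355965 and 390066 FPKM in those 2 libraries and to 595021 to 875547 FPKM in the other 4.

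The 7 named features lie on 6 chromosomes of GRCm38. *C1qb* is listed on the minus strand of Chr. 4 from 136880129 to 136886187 and *C1qa* from 136895917 to 136898803, with the RefSeq span of *C1qc* (136889801 to 136892936) between them. *Lyz2* is listed on the minus strand of Chr. 10 from 117277331 to 117293692, while RefSeq ends *Lyz2* at 117282272 and begins *Lyz1* at 117287795. *Adgre1* is on Chr. 17, plus strand (57358686 to 57483529), *Cd68* on the minus strand of Chr. 11 (69664213 to 69666153) and *Mrc1* on Chr. 2, plus strand (14229392 to 14332057). *Itgam* is on Chr. 7, plus strand, at 128062640 to 128128160, which runs past the RefSeq end at 128118491 without reaching another coding gene. FPKM are per length of transcript, but levels of different members depend on the unit. In bone replicate 1 the deposited mean coverage per base was 2.44 times the FPKM for *C1qa*, 1.97 times for *Adgre1*, 1.22 times for *Lyz2* and 0.47 times for *Itgam*, the last 2 being features that run past their gene.

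The bases upstream of 4 genes are shown, and these genes were picked by their values. *C1qb* and the feature over *Lyz2* and *Lyz1* followed the *Hbb-bt* mark, while *Itgam* did not on the FPKM scale. Each sequence is the 250 bases before the start of a RefSeq transcript on GRCm38.p6, 5′ to 3′ on the strand of the gene. GGAAGT or its reverse complement ACTTCC is in capitals. This hexamer holds the core that Ets factors such as PU.1, a regulator of myeloid genes, bind, and it was chosen after the sequences had been seen. Shorter stretches such as GGAA are not marked, and the *Itgam* window holds them too. The windows are chr4:136886201-136886450 (minus) for *C1qb*, chr10:117282273-117282522 (minus) for *Lyz2*, chr10:117292869-117293118 (minus) for *Lyz1* and chr7:128062390-128062639 (plus) for *Itgam*.
C1qb: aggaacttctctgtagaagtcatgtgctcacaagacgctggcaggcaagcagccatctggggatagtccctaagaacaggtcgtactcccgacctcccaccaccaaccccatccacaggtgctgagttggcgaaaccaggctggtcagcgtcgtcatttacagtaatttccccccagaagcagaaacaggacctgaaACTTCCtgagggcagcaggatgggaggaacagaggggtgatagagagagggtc
Lyz2: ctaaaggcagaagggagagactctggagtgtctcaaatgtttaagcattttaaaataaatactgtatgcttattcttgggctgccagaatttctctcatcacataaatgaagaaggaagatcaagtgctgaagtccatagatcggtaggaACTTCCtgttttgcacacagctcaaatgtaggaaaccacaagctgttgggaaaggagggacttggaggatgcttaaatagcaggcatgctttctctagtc
Lyz1: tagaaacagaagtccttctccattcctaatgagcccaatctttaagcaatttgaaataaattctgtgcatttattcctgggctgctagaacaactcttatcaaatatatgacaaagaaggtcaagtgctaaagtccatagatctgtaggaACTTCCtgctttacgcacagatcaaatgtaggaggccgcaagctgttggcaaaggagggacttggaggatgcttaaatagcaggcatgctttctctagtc
Itgam: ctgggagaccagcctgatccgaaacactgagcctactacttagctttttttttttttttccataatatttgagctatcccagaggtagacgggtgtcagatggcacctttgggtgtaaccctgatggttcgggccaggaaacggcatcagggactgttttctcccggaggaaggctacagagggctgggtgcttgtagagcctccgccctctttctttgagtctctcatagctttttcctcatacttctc

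The match in *C1qb* begins 53 bases before the start. The matches in *Lyz2* and *Lyz1* each begin 100 bases before it, in windows that share 79.4% of their aligned columns. Of the 10 genes, 8 have an entry among the 32851 promoters of the RefSeq table, all but *Adgre1* and *C1qa*. A match lay within these 250 bases of 5 of the 8, which are *C1qb*, *C1qc*, *Lyz1*, *Lyz2* and *Mrc1*, and in 19.7% of all promoters in the table. *Lyz1* and *Lyz2* are copies of each other and do not count as separate cases. *Cd68*, *Cd163* and *Itgam* had no match in this window, which says only that these letters are not there. *Cd68* followed the *Hbb-bt* mark without a match. Since the hexamer was chosen after the sequences had been seen, these counts cannot test it. No link between the sequences and the expression values was tested.

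Among the chains of C1q, *C1qa* measured 1156, 575 and 176 FPKM across bone replicates 1 to 3 and 633, 241 and 173 FPKM across osteoblasts replicates 1 to 3. The 3 libraries under the *Hbb-bt* mark had the 3 highest values, the lowest of them 2.38 times the highest above the mark. *C1qb* measured 728, 360 and 99.2 FPKM across bone replicates 1 to 3 and 444, 139 and 107 FPKM across osteoblasts replicates 1 to 3. It had the same high and low libraries as *C1qa*, and the labels overlapped for both genes. In these whole-tissue and whole-culture samples, FPKM are relative to all aligned reads. Fewer macrophages, less RNA per macrophage and more RNA from other cells therefore cannot be told apart.

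Each C1q molecule needs every chain, and *C1qa* and *C1qb* kept close to one proportion in the 6 libraries. *C1qb* made up 38.6, 38.5 and 36.1% of the sum of *C1qa* and *C1qb* across bone replicates 1 to 3 and 41.2, 36.5 and 38.2% across osteoblasts replicates 1 to 3. This share was 38.5 to 41.2% in the libraries under the *Hbb-bt* mark and 36.1 to 38.2% in those above it, a separation by a narrow margin that was not tested. The sum of *C1qa* and *C1qb* varied from 275 to 1884 FPKM, so these genes moved together over this range. The share under the label osteoblasts was 0.92 percentage points above that under the label bone (38.7 ± 2.39 and 37.7 ± 1.44%, SD, n = 3, two-sided exact permutation test p = 0.6). Without osteoblasts replicate 1, which had the highest share, the difference turned to -0.37 percentage points. With the unnamed feature over *C1qc* added to the sum, a choice made after seeing the data, the share of *C1qb* was 25.1 to 26.4% for bone and 26.6 to 28.5% for osteoblasts. The labels then did not overlap, with a difference of 1.61 percentage points and the smallest p that the exact permutation test can give, 0.1.

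A feature without a name on the minus strand of Chr. 4, from 136889804 to 136893065, covers 99.9% of the RefSeq span of *C1qc* and had 878, 456 and 120 FPKM across bone replicates 1 to 3. It had 484, 141 and 115 FPKM across osteoblasts replicates 1 to 3. Set against *C1qa*, this is 0.76, 0.79 and 0.69 times the level in the libraries labelled bone, and 0.76, 0.58 and 0.67 times in those labelled osteoblasts. The ratio was higher in each library under the *Hbb-bt* mark than in any above it. The feature is described by position only, since the tables do not name it *C1qc*.

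Of the genes of macrophage identity, *Adgre1* measured 166, 90.5 and 15.8 FPKM across bone replicates 1 to 3 and 87.3, 20.9 and 18.6 FPKM across osteoblasts replicates 1 to 3. Its lowest value under the *Hbb-bt* mark was 4.17 times its highest above the mark, the widest such gap of the 7 genes. *Mrc1* measured 127, 70.0 and 10.1 FPKM across the same bone replicates and 82.2, 14.7 and 18.6 FPKM across those of osteoblasts, a gap of 3.77 times. *Cd68* measured 223, 123 and 55.3 FPKM in the libraries labelled bone and 138, 65.4 and 60.9 FPKM in those labelled osteoblasts, with the narrowest gap of the 6 genes that have one, 1.88 times. For each of these genes bone replicate 3 lay far under the other libraries labelled bone, and osteoblasts replicate 1 far above the others labelled osteoblasts. No gene of the 7 had labels that did not overlap, against 0.916% of the 12112 genes with a mean of at least 1 FPKM.

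*Lyz2*, with *Lyz1* inside its feature, was the most abundant of the 7 in each library. It measured 7332, 4330 and 1280 FPKM across bone replicates 1 to 3 and 3955, 1546 and 1596 FPKM across osteoblasts replicates 1 to 3. Among named genes this placed it between the 6th and the 12th from the top in the libraries under the *Hbb-bt* mark and between the 42nd and the 58th in the others. Lysozyme stayed within the top 0.5% of genes with at least 1 FPKM in each library, also where the neutrophil genes were at or near 0.

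*Itgam* went its own way. It measured 60.4, 29.6 and 52.0 FPKM across bone replicates 1 to 3 and 33.7, 49.9 and 67.8 FPKM across osteoblasts replicates 1 to 3. On the FPKM scale its libraries under and above the *Hbb-bt* mark overlapped. Its highest value was 2.29 times its lowest, while for the other 6 genes this ratio ran from 4.04 (*Cd68*) to 12.6 (*Mrc1*). Of the 7 genes, 6 had their 3 highest FPKM in the 3 libraries under the mark, and 16.9% of the 12112 genes did. A gap of at least 2 times was found in 5 of the 7, and in 5.06% of the 12112 genes. These are counts over libraries set apart by *Hbb-bt*, not by a label, and no test was made on them.

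**Figure D1:**
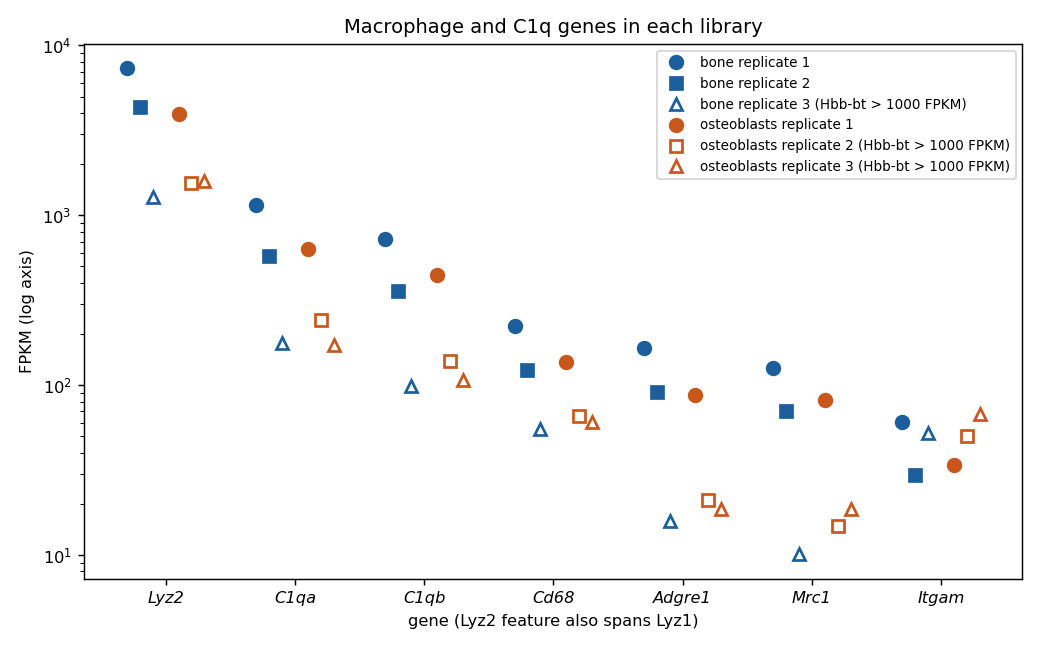
FPKM of the 7 genes with a named feature in each library on a log axis, with color and shape for label and replicate and open symbols for libraries with *Hbb-bt* above 1000 FPKM. For *Lyz2* to *Mrc1* the 3 filled symbols lie above the 3 open ones, while for *Itgam* they mix between 29.6 and 67.8 FPKM.

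FPKM are relative to every aligned read, whether its feature has a name or not, so each gene was also set against the named genes of its library. With the named FPKM of each library scaled to a sum of 1000000, *C1qa* was at 1942, 1615 and 201 across bone replicates 1 to 3 and at 1623, 280 and 210 across osteoblasts replicates 1 to 3. Bone replicate 2 and osteoblasts replicate 1 thus lay much nearer to bone replicate 1 than on the FPKM scale. *Adgre1* was at 224 to 279 in the libraries under the *Hbb-bt* mark and at 18.0 to 24.3 in the others, and *Mrc1* at 197 to 213 and at 11.5 to 22.6. *Itgam* was at 83.3 to 101 under the mark and at 58.0 to 82.4 above it, no longer overlapping but by a narrow margin. All 7 genes now had their 3 highest values under the mark, but so did 48.6% of the 12112 genes, and scaling this way moved the median of all genes between the labels from 0.12 to -0.03 on the log2 scale.

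**Figure D2:**
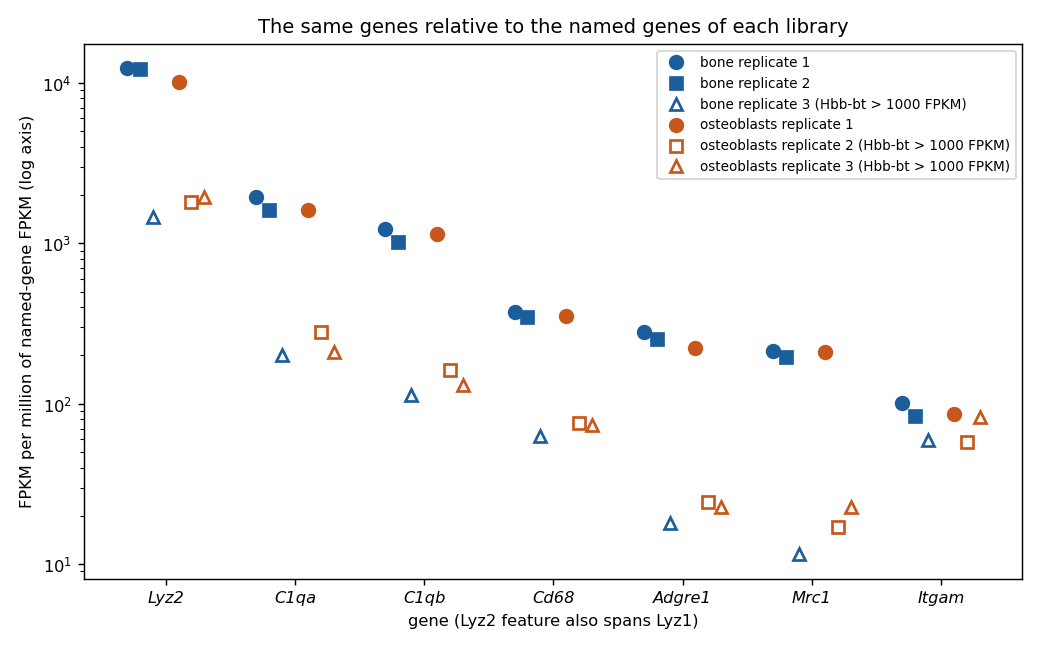
The same 7 genes with the named-gene FPKM of each library scaled to a sum of 1000000, on a log axis with the same symbols. The filled symbols, for libraries with *Hbb-bt* under 1000 FPKM, draw together on this scale, with *Cd68* at 346 to 375 in them and at 63.1 to 75.9 in the others.

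Ratios within a library do not depend on its scaling. *Adgre1*, the denominator of these ratios, had the widest gap by the *Hbb-bt* mark of the 7 genes, 4.17 times. A gene with a narrower gap or none thus tends to have a higher ratio above the mark. The share of all genes with such an order was not computed. *Mrc1* stayed near *Adgre1*, at 0.76, 0.77 and 0.64 times its FPKM across bone replicates 1 to 3 and 0.94, 0.70 and 1.00 times across osteoblasts replicates 1 to 3. The libraries on either side of the *Hbb-bt* mark overlapped in this ratio. *Cd68* was at 1.34, 1.36 and 3.50 times *Adgre1* in the libraries labelled bone and at 1.58, 3.12 and 3.27 times in those labelled osteoblasts, higher in the 3 libraries above the mark.

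C1q, as the sum of *C1qa* and *C1qb*, was at 11.3, 10.3 and 17.4 times *Adgre1* across bone replicates 1 to 3 and at 12.3, 18.1 and 15.0 times across osteoblasts replicates 1 to 3. *Lyz2* was at 44.1, 47.9 and 81.1 times *Adgre1* in the libraries labelled bone and at 45.3, 73.8 and 85.7 times in those labelled osteoblasts. Both ratios were higher in each library above the *Hbb-bt* mark than in any under it, an order that the choice of *Adgre1* as denominator favours. *Itgam* was at 0.36, 0.33 and 3.29 times *Adgre1* under the label bone and at 0.39, 2.38 and 3.64 times under the label osteoblasts, the widest range of these ratios. By the deposited coverage *Itgam* was at 0.09, 0.08 and 0.75 times *Adgre1* in the libraries labelled bone and at 0.09, 0.53 and 0.87 times in those labelled osteoblasts, and *Lyz2* at 27.3 to 29.3 times under the mark and 44.4 to 56.1 times above it. The size of a ratio between genes therefore depended on the unit, while the libraries above the mark were the higher ones in both. The neutrophil genes, whose cells also carry *Itgam* and *Lyz2*, were high in the same 3 libraries (*S100a9* at 4775 to 8033 FPKM, against 0 to 0.92), and their part in these ratios was not tested.

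**Figure D3:**
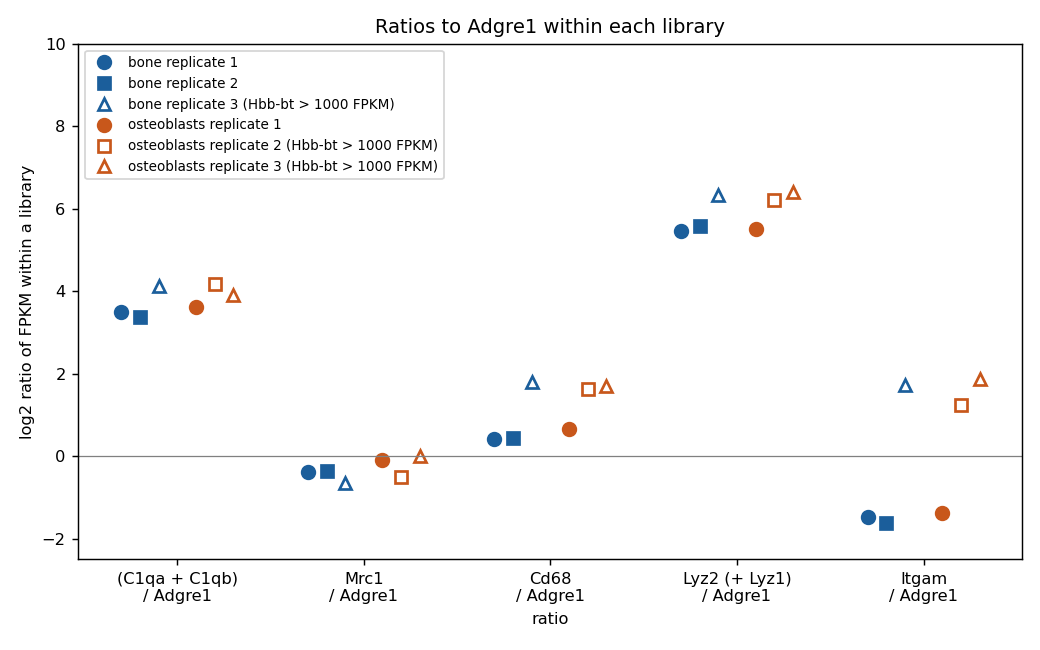
The log2 ratio of each gene to *Adgre1* within a library, with color and shape for label and replicate and open symbols for *Hbb-bt* above 1000 FPKM. *Itgam* runs from -1.61 to 1.86 and *Cd68* from 0.43 to 1.81, with the open symbols on top, while *Mrc1* lies between -0.65 and 0.00 with the symbols mixed.

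The study sequenced bone and osteoblasts to ask which transcripts of one locus each expressed, and the members were compared here between these labels. *C1qa* averaged 635 ± 493 FPKM (SD, n = 3) for bone and 349 ± 248 FPKM for osteoblasts, and that of *Adgre1* was 90.9 ± 75.3 and 42.3 ± 39.0. In a limma fit on log2(FPKM + 1) over 12112 genes, 0 genes passed a Benjamini-Hochberg adjusted p of 0.05 (0% of those tested, with 17 at an unadjusted p under 0.05), and none of the 7 members was among those 17. The fitted difference, osteoblasts minus bone, was -0.92 for *Adgre1* (standard error 0.92, limma adjusted p = 0.999) and 0.10 for *Itgam* (standard error 0.53, limma adjusted p = 0.999). Those of *C1qa*, *Lyz2*, *C1qb*, *Mrc1* and *Cd68* were -0.71, -0.69, -0.66, -0.66 and -0.49, with standard errors of 0.66 to 0.97. Their median with *Adgre1* and *Itgam* was -0.66, against 0.12 over all genes tested. Each of the 7 differences was smaller than its standard error.

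Of these genes *Mrc1* and *Itgam* changed sign with a single library left out, *Mrc1* to 0.07 without bone replicate 1 and *Itgam* to -0.20 without bone replicate 2 and to -0.14 without osteoblasts replicate 3. Without bone replicate 1 the differences of *Adgre1*, *Lyz2*, *C1qa*, *Cd68* and *C1qb* shrank to -0.22, -0.14, -0.09, -0.01 and -0.01. Without bone replicate 3 or osteoblasts replicate 1 they grew. Without bone replicate 3, *Adgre1* differed by -1.88 (standard error 0.74, limma adjusted p = 0.249) and *Mrc1* by -1.69 (standard error 0.74, limma adjusted p = 0.336). Without osteoblasts replicate 1, *Adgre1* differed by -1.62 (standard error 0.78, limma adjusted p = 0.370). These fits called 77 and 300 of 12112 genes, with 0 of the 7 members among them. The fit without bone replicate 3 leaves only libraries under the *Hbb-bt* mark in bone. That without osteoblasts replicate 1 leaves only libraries above it in osteoblasts. Called higher under the label osteoblasts were 7 and 8 of 8 neutrophil genes and, in both fits, 4 of 4 erythroid genes, *Hbb-bt* among them. *Msr1*, a scavenger receptor, and *Vsig4*, from the lists of other macrophage genes, were called lower under the label osteoblasts in both fits, and *C3* higher without osteoblasts replicate 1. A difference by label and one by the *Hbb-bt* mark are not separated in these fits.

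On the log2 scale summed C1q averaged 9.62 ± 1.40 (SD, n = 3) for bone and 8.93 ± 1.02 for osteoblasts (two-sided exact permutation test, p = 0.7). The sum of *Adgre1*, *Cd68* and *Mrc1* was 7.84 ± 1.35 and 7.19 ± 0.93 (exact permutation test, p = 0.7), and lysozyme was 11.7 ± 1.29 and 11.1 ± 0.77 (exact permutation test, p = 0.6). The log2 ratios to *Adgre1* differed by 0.24 for C1q (exact permutation test, p = 0.4), 0.27 for *Mrc1* (p = 0.3) and 0.44 for *Cd68* (p = 0.4). They differed by 0.25 for *Lyz2* (exact permutation test, p = 0.6) and 1.03 for *Itgam* (p = 0.5). With 9 such values in the family, each adjusted p was 0.7, and 3 libraries against 3 cannot give an exact p under 0.1. Summed C1q differed by -0.69 between the labels and by -0.06 without bone replicate 1 and -1.45 without bone replicate 3.

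Other genes of the macrophage program were read from a list of 20, of which 16 are named in the tables. In the limma fit by label 0 of the 16 passed the threshold in either direction, with 8 differences above 0 and 8 under it. By the *Hbb-bt* mark, 7 of the 16 had their 3 highest FPKM in the libraries under it, where the background was 16.9%, 3 in the libraries above it, where the background was 38.4%, and 6 in neither. *Csf1r*, the receptor for the growth factor that macrophages need to live, was one of the 7 and had 363, 179 and 46.5 FPKM across bone replicates 1 to 3 and 196, 51.7 and 44.0 FPKM across osteoblasts replicates 1 to 3. *Ctss*, a lysosomal protease that prepares antigens, had 654, 404 and 41.5 FPKM under the label bone and 292, 72.4 and 51.1 FPKM under the label osteoblasts. Like *Adgre1* and C1q, both were higher in each library under the mark than in any above it.

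*Adgre1* was at 0.45 to 0.51 times *Csf1r* in the libraries under the mark and at 0.34 to 0.42 times in those above it, a narrow separation. *Itgam* was at 0.17 times *Csf1r* in each of the 3 libraries under the mark and at 0.96 to 1.54 times in the others. *Tyrobp*, an adaptor of receptors on all myeloid cells, had 194 to 429 FPKM, and *Laptm5*, a lysosomal protein of blood cells, 116 to 214 FPKM, with no separation by the mark. *Spi1*, which encodes PU.1, was one of the 3 genes with the opposite order, with 18.7 to 38.6 FPKM in the libraries under the mark and 48.4 to 50.8 in those above it. The ratio of *Itgam* to *Spi1* was 1.56, 1.59 and 1.07 across bone replicates 1 to 3 and 1.39, 0.98 and 1.40 across osteoblasts replicates 1 to 3, a narrower range than that of *Itgam* to *Adgre1*.

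Of 10 genes of resident tissue macrophages, 7 are named, 6 of them with a mean of at least 1 FPKM. None of the 6 passed the limma fit by label, with 3 differences above 0 and 3 under it. By the *Hbb-bt* mark, 3 of the 6 had their 3 highest FPKM under it, where the background was 16.9%. Above it there was 1, where the background was 38.4%, and 2 were in neither. *Marco*, a scavenger receptor for bacteria, had 341, 126 and 0.28 FPKM across bone replicates 1 to 3 and 148, 5.88 and 0.70 FPKM across osteoblasts replicates 1 to 3. *Vsig4*, a receptor for fragments of complement C3 on tissue macrophages, had 15.2 and 9.63 FPKM in bone replicates 1 and 2 and 4.23 FPKM in osteoblasts replicate 1, and is listed at 0 in the other 3 libraries. *Hmox1*, which breaks down heme, had 70.3 to 155 FPKM with no separation by the mark. *Clec10a* did not separate by it either, with 12.7, 3.85 and 4.85 FPKM across bone replicates 1 to 3 and 13.8, 5.70 and 5.76 FPKM across osteoblasts replicates 1 to 3. *Timd4*, a receptor for dying cells on resident macrophages and chosen here after its values were seen, went the other way, with 0 to 0.12 FPKM under the mark and 5.00 to 7.00 FPKM above it.

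Of 10 listed genes of the classical complement pathway beside C1q or of binding partners of C1q, 6 are named, and 0 of the 6 passed the limma fit by label. Of these, 0 had their 3 highest FPKM under the *Hbb-bt* mark, where the background was 16.9%, and 4 had them above it, where it was 38.4%, and no test was made of these counts. *C1qbp*, which encodes a binding partner of C1q, is among these 4. *C3*, the central component that the pathway cleaves, had 9.83, 0.73 and 76.7 FPKM across bone replicates 1 to 3 and 3.41, 119 and 92.7 FPKM across osteoblasts replicates 1 to 3. *Calr*, which encodes calreticulin, a chaperone and a binding partner of C1q, had 158 to 348 FPKM, and *Serping1*, which encodes the inhibitor of C1r and C1s, 40.7 to 120 FPKM, without separation by the mark. *C4b*, the component cleaved by C1s, had 1.44 to 12.0 FPKM under the mark and 30.5 to 50.9 FPKM above it.

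**Figure D4:**
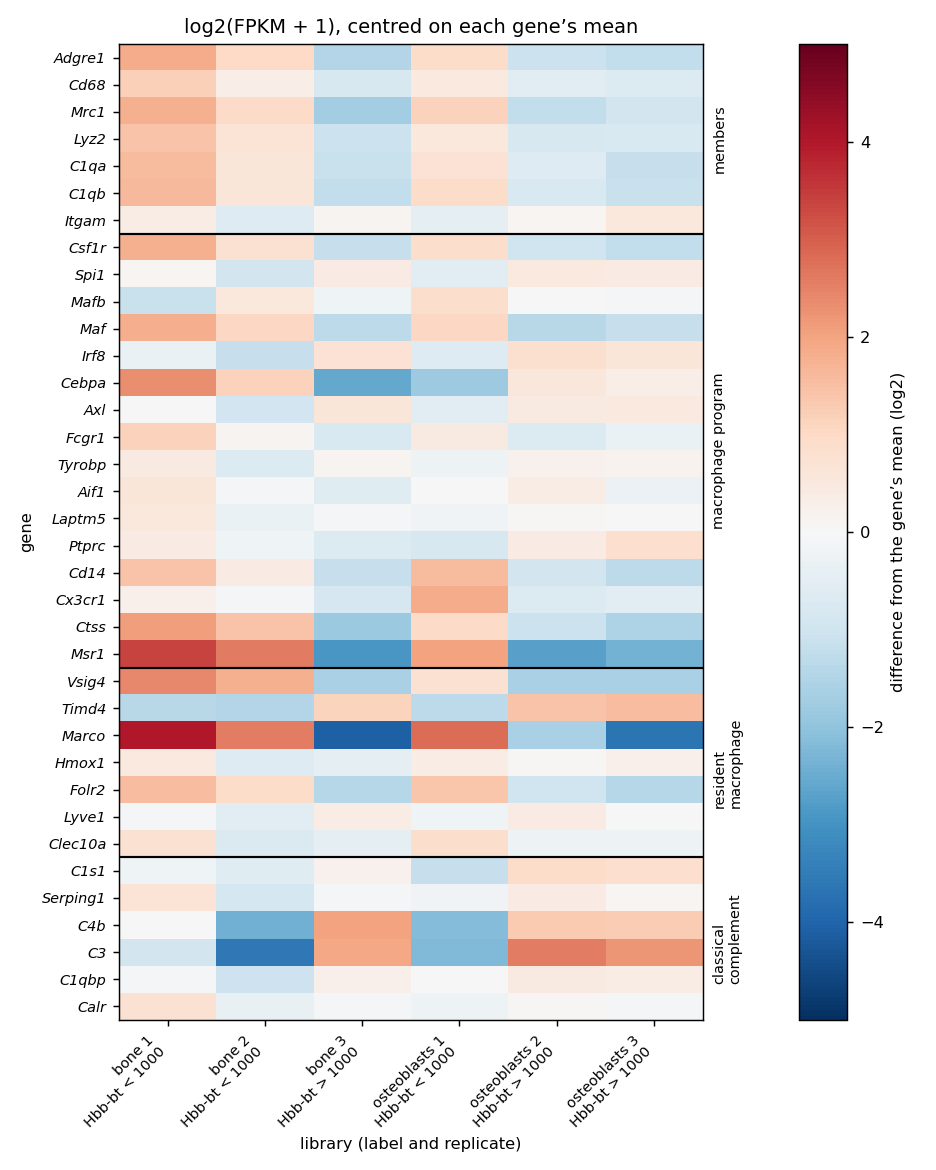
Difference of log2(FPKM + 1) from each gene's mean for the 7 members and the named genes of the 3 lists, 36 genes in all, in the 6 libraries. The members other than *Itgam* are above their mean in bone replicates 1 and 2 and osteoblasts replicate 1, as are *Csf1r*, *Ctss*, *Msr1* and *Marco*, while *C3* and *C4b* are above theirs in bone replicate 3 and osteoblasts replicates 2 and 3.

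Markers of other cells were read in the same libraries. Of 6 listed monocyte genes 3 are named, and *F13a1*, *Fn1* and *Klf4* each had their 3 highest FPKM under the *Hbb-bt* mark, where the background was 16.9%. *F13a1*, which encodes a coagulation factor subunit made by monocytes and macrophages, was at 277 to 494 FPKM there and at 22.3 to 34.6 FPKM in the others. *Fn1*, which encodes fibronectin and is made by stromal cells too, was at 335 to 753 and at 117 to 188 FPKM. Of 5 osteoclast genes with a mean of at least 1 FPKM, 2 had their 3 highest FPKM above the mark, near the background of 38.4%, and 3 in neither group. The former were *Acp5*, the phosphatase TRAP, at 14.9 to 111 FPKM under the mark and 325 to 342 above it, and *Mmp9*, a matrix protease that neutrophils carry too, at 2.96 to 64.8 and 257 to 308, while *Ctsk*, the collagen-degrading protease, overlapped at 29.5 to 137 and 116 to 149. The summed FPKM of 3 skeletal muscle genes was 0.03 to 1.09 under the mark and 221 to 943 above it. *Col1a1*, the main collagen of bone, overlapped at 1662 to 3332 FPKM under the mark and 1499 to 2234 above it. None of the genes tested on these lists passed the limma fit by label over all 6 libraries that had no term for replicate number. The part of these cells in the members' values was not tested.

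The genes whose pattern over the 6 libraries was most like that of summed C1q were found by the root mean square difference of centred log2(FPKM + 1) among 4350 genes with a mean of at least 10 FPKM. Leaving the members aside, they were *Gm38317*, a predicted gene (0.07), *Lama4*, a laminin chain of basement membranes (0.10), *Dapk1*, a kinase linked to cell death (0.11), *Amotl2*, a scaffold at cell junctions (0.12), and *Basp1*, a protein of the inner cell membrane (0.12). *Lama4* had 34.9, 19.4 and 5.30 FPKM across bone replicates 1 to 3 and 24.4, 7.37 and 4.99 FPKM across osteoblasts replicates 1 to 3. Of the members outside the sum, *Lyz2* came nearest at 0.21 and the 37th place, before *Adgre1* at 0.28 and the 97th, *Cd68* at 0.34 and the 174th and *Mrc1* at 0.40 and the 239th. *Itgam* was at 1.28 and the 2215th place.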

How the data were processed

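The 6 libraries, 3 of each label, were measured by RNA-seq. Paired reads of 75 bp were aligned by the authors with HISAT2 2.0.5 (GRCm38), who estimated expression with StringTie 1.3.3, with SAMtools 1.7 also named in the submitters' processing notes. Each deposited table lists 93289 features. The deposited FPKM are scaled to all aligned reads, the deposited TPM to the library's own sum, and the deposited coverage is the mean signal per base. Read counts were not used here. StringTie merged some neighbouring genes into loci, and the library kit does not mark strand, so overlapping features on opposite strands share reads.

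Named features were summed by gene name. Genes with a mean of at least 1 FPKM (12112) were fitted with limma 3.58.1 in R 4.3.3 (trend, Benjamini-Hochberg, threshold 0.05) on log2(FPKM + 1), a scale that understates changes of low genes. On simulated data for these labels with 200 of 12112 genes changed by 2 (log2) and an SD of 0.3, it recovered 200 with 9 other calls. The real median SD within a label was 0.59. Single values were compared with exact two-sided permutation tests (scipy 1.17.1, Python 3.11.15, numpy 2.4.6, pandas 2.3.3), and plots used matplotlib 3.10.9. Sums and ratios planned with *Cd163*, *Lyz1* or *C1qc* used the named members alone, and the ratios of *Cd163* to *Adgre1* and of *Lyz1* to *Lyz2* could not be computed. Alternatives were another pseudocount, filter, unit or scaling, limma with no trend, a replicate block, and leaving out each library. Named genes are the 10 members, *Hbb-bt*, listed genes as counts with the highest-expressed members as examples, and the 5 genes most like summed C1q. *Spi1*, *Timd4*, *Msr1*, *Elane* and *Sost* were named after their values were seen. The members and lists were chosen with earlier results of these data known.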

Additional observations from a re-analysis of the deposited data

Results flagged for a closer look

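Some signal lay on features without a name that the comparisons did not use, above the floor of 0.133 to 0.221 FPKM. The feature over *C1qc* on Chr. 4 reached 878 FPKM in bone replicate 1. On Chr. 6, the feature on the plus strand from 124304656 to 124330527, which covers 99.9% of the RefSeq span of *Cd163*, had 10.1, 7.00 and 3.41 FPKM across bone replicates 1 to 3 and 8.61, 3.60 and 5.17 FPKM across osteoblasts replicates 1 to 3. This is 0.06 to 0.10 times *Adgre1* in the libraries with *Hbb-bt* under 1000 FPKM and 0.17 to 0.28 times in the others. Shorter features inside that span, from 124314228 on the plus strand and from 124318015 on the minus strand, reached 3.98 and 4.42 FPKM. On Chr. 10, a feature on the plus strand from 117264837 to 117288141 covers all of *Lyz2*, which lies on the minus strand, and reached 412 FPKM in bone replicate 1. It had 333 FPKM in bone replicate 2, 56.2 in bone replicate 3, 175 in osteoblasts replicate 1 and 68.0 in osteoblasts replicate 3, but only 0.08 in osteoblasts replicate 2. Without strand its reads and those of the lysozymes cannot be told apart.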

How the results depend on the processing

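The count of genes called between the labels was 0 under each alternative of pseudocount, filter, unit, scaling and trend. It was 49 with the replicate block (0.405% of 12112 genes, 0 of them members) and 0 to 300 with a library left out, with 77 called without bone replicate 3 and 300 without osteoblasts replicate 1. The 49 included 7 of 8 neutrophil genes and 4 of 4 erythroid genes, *Hbb-bt* among them, all higher under the label osteoblasts. Same-numbered libraries had deviations from their label means correlated at 0.84, -0.75 and 0.83. Bone replicate 2 correlated best with osteoblasts replicate 1 (0.80), and bone replicate 3 with osteoblasts replicate 2 (0.831, against 0.830 with its own number). These correlations were positive between libraries on the same side of the *Hbb-bt* mark and negative between the others. They therefore cannot show whether libraries of the same number share a mouse. The numbers were not taken as pairs in the main tests because nothing ties them to mice. For sums and ratios an exact sign-flip over the numbers has the same differences by construction and cannot go under p = 0.25. *Itgam* turned to -0.092 with values rescaled to named genes and to -0.0059 with scaling to the 75th percentile, and ran from -0.20 to 0.35 with a library left out. *Mrc1* ran from -1.69 to 0.073, and the *C1qb* share from -0.37 to 1.99 percentage points. With a library left out, summed C1q ran from -1.45 to -0.06, the sum of *Adgre1*, *Cd68* and *Mrc1* from -1.39 to -0.07, and lysozyme from -1.40 to -0.14. The log2 ratios to *Adgre1* ran from 0.09 to 0.47 for C1q, 0.17 to 0.43 for *Mrc1*, 0.21 to 0.90 for *Cd68*, 0.06 to 0.52 for *Lyz2* and 0.39 to 2.12 for *Itgam*. The cause was not tested. With the unnamed feature over *C1qc* added, a choice made after seeing the data, the difference in the *C1qb* share was 1.61 points (exact permutation p = 0.1), that in summed C1q -0.75 and that in its ratio to *Adgre1* 0.19. Depth limits only low values such as *Vsig4*.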
